A study of Mus musculus with 18 samples.

Results

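The genes described here make sterols and fatty acids, and were taken as every gene in the deposited count table whose name matched a list of 29 members. All 29 were found among 56748 genes, and all 29 passed the filter on low counts that left 13691 genes for testing. The list holds 21 genes of the sterol branch and 8 genes of the fatty acid branch. RNA was sequenced from RAW 264.7 cells, a mouse macrophage-like line, in 18 libraries that form 6 groups of 3. TBHQ (tert-butylhydroquinone) is a food antioxidant, LPS (lipopolysaccharide) is a bacterial surface molecule, and PIC (poly I:C) is a synthetic RNA that mimics viral RNA. Control cells, described as kept in medium alone for 12 h, had no further treatment, and TBHQ cells were collected at the end of 4 h with 5 µM TBHQ. LPS cells had 0.1 µg/mL for 12 h and PIC cells had 20 µg/mL for 12 h. The LPS+TBHQ and PIC+TBHQ cells had the same stimulus for 12 h after 4 h of 5 µM TBHQ. The TBHQ group was therefore collected earlier than the groups with 12 h of a stimulus, and by that description earlier than the control, so time and treatment cannot be told apart in the comparison of TBHQ alone with the control. The libraries held 14423390 to 18851626 counts, so that 3 counts, the floor used for a gene at 0, equal 0.159 to 0.208 CPM (counts rescaled to the same library size). That floor covers counting error only. The libraries of a group are described as biological replicates, all of the same cell line. TBHQ was dissolved in DMSO, and no DMSO is described for the sequenced groups without TBHQ. Solvent and TBHQ therefore cannot be told apart.

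Cholesterol is built from acetyl-CoA through the mevalonate pathway, and squalene is then closed and trimmed into sterols. Fatty acids are built from the same acetyl-CoA by carboxylation, chain synthesis, elongation and desaturation. The SREBP transcription factors act on genes of both branches and are held in the endoplasmic reticulum by Insig proteins when sterols are plentiful, while LXR receptors respond to oxysterols and act on fatty acid genes in macrophages.

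The libraries carried the RNA of macrophages. The 8 macrophage markers summed to 5570 to 6570 FPKM (fragments scaled by gene length and by library total) in each library, and Lyz2 was the most abundant. Mrc1, a mannose receptor of some macrophages, was the lowest of the 8 in every group, at 0.0659 to 0.343 FPKM. Among markers of other cell types, Cd3e, Nkg7, Krt8 and Col1a2 were at 0 counts in every library, and the sum of the markers ran from 0.0 to 0.244 FPKM over the libraries. The most abundant of these by FPKM was Cpa3, a mast cell marker, with at most 5 counts in a library. The treatments left their own marks. Gclm, a glutathione synthesis gene of the antioxidant response, rose after TBHQ (log2 fold change, log2FC, 1.82), and the interferon-stimulated gene Rsad2 rose after LPS (1.94) and PIC (3.85). Of the 8 treatment genes followed, 4 rose and 3 fell after TBHQ, while all 8 rose after LPS and all 8 after PIC. Before a stimulus, TBHQ was followed by a rise of 2 and a fall of 6 under LPS and also under PIC. Of the 8 macrophage markers, 1 rose and 4 fell after TBHQ, 3 rose and 3 fell after LPS, and 4 rose and 3 fell after PIC. With TBHQ before LPS, 3 macrophage markers rose and 2 fell, and before PIC 3 rose and 3 fell. Over all genes tested, 14.2% rose and 14.8% fell after TBHQ, 24.0% and 24.1% after LPS, and 28.6% and 30.1% after PIC. With TBHQ beforehand, 11.7% of all genes rose and 12.2% fell under LPS, and 15.8% and 15.5% under PIC. The part of the macrophage markers in the results for the sterol and fatty acid genes was not tested.

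Differences are given as log2FC ± SE from edgeR's quasi-likelihood test on counts, with Benjamini-Hochberg adjustment over all 13691 genes, and a gene is said to rise or fall only at a false discovery rate (FDR) below 0.05. The SE comes from the log2 CPM of the libraries compared. In bulk RNA, fewer cells of a kind and less RNA per cell cannot be told apart.

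Together the 29 genes held 0.385 ± 0.0058% of all counts in the control (SD, n = 3), 0.427 ± 0.0067% after TBHQ, 0.299 ± 0.0085% after LPS and 0.278 ± 0.0087% after PIC. With TBHQ beforehand the share was 0.347 ± 0.0031% under LPS and 0.32 ± 0.00058% under PIC. The 6 groups did not overlap in this share, and PIC alone was the lowest. This share rests on library totals, and the order of PIC and LPS depends on the scaling. In the deposited FPKM summed over a branch, libraries of LPS and PIC overlapped. The sterol sums were 338 to 360.2 after LPS and 352.5 to 370.5 after PIC. The fatty acid sums were 250.3 to 260.1 and 249.2 to 265.2. Single genes covered a wide range of levels. Fads2 and Acly were the most abundant members, with up to 102 and 90.04 FPKM in a library, and Fdps and Tm7sf2 were the lowest, at 1.03 to 2.28 and 1.15 to 2.44 FPKM.

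The upper mevalonate steps were read from Acat2, which joins a pair of acetyl-CoA molecules, Hmgcs1, which adds another, and the kinases Mvk and Pmvk. Hmgcs1 (ENSMUSG00000093930) was at 19.6, 21.6 and 20.3 FPKM in the control, 17.7, 17.3 and 17.4 after TBHQ, 18.04, 18.6 and 18.1 after LPS and 22.1, 20.9 and 22.8 after PIC. Hmgcs1 with TBHQ before the stimulus was at 16.7, 17.4 and 15.2 FPKM under LPS and 18.1, 16.8 and 17.6 under PIC. PIC libraries were among the highest for this gene and overlapped the control, while each of the other 4 groups lay below every control library. Hmgcs1 fell after TBHQ (log2FC -0.23 ± 0.0417, FDR 0.000342) and after LPS (log2FC -0.18 ± 0.0437, FDR 0.00347). It also fell when TBHQ preceded PIC (log2FC -0.32 ± 0.0479, FDR 4.23e-06). The fall when TBHQ preceded LPS (-0.15, FDR 0.0212) was not called without LPS replicate 2 or LPS+TBHQ replicate 3 (-0.14 to -0.10, FDR 0.0867 to 0.203), nor with libraries scaled by their totals (-0.13, FDR 0.0601). Against the control, PIC gave 0.08 (FDR 0.149) for Hmgcs1, and with libraries scaled by their totals the difference turned to a called fall (-0.14, FDR 0.0166).

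Mvk, at 7.04 to 11.7 FPKM over all libraries, did not follow Hmgcs1. Its group means were 10.2 ± 1.21 FPKM (SD, n = 3) in the control, 7.70 ± 0.664 after PIC, 10.8 ± 0.423 with TBHQ before LPS and 9.57 ± 0.662 with TBHQ before PIC. Mvk fell after PIC (log2FC -0.42 ± 0.125, FDR 0.000222). Its fall after LPS (-0.24, FDR 0.0336) was lost without control replicate 1 or 2 or LPS replicate 1 or 2 (-0.21 to -0.14, FDR 0.112 to 0.261). It rose when TBHQ preceded LPS (0.31, FDR 0.0115), a call lost without LPS replicate 1 or 2 or LPS+TBHQ replicate 2 (0.23 to 0.28, FDR 0.0533 to 0.11). The rise when TBHQ preceded PIC (0.33, FDR 0.00805) was lost without PIC replicate 1 (0.25, FDR 0.0743). Pmvk, the kinase that follows, was at 12.3 to 18.2 FPKM and rose when TBHQ preceded either stimulus (0.24 for LPS, 0.26 for PIC). Both Pmvk calls were weak: that under LPS was lost without LPS replicate 1, 2 or 3 or LPS+TBHQ replicate 1, 2 or 3 (0.23 to 0.25, FDR 0.0622 to 0.0966), and that under PIC without PIC replicate 1 or 3 or PIC+TBHQ replicate 2 (0.16 to 0.21, FDR 0.113 to 0.203). Acat2, at 20 to 28.9 FPKM, fell after PIC (log2FC -0.36 ± 0.0663, FDR 2.44e-05) and, with less margin, after LPS (-0.22, FDR 0.00664), where the call was lost without control replicate 3 or LPS replicate 1 (-0.16 to -0.15, FDR 0.083 to 0.0941). Acat2 rose when TBHQ preceded PIC (0.23, FDR 0.00921), which was lost without PIC replicate 2 or PIC+TBHQ replicate 1 (0.13 to 0.20, FDR 0.0525 to 0.181).

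The lower mevalonate steps make and join isoprene units: Mvd forms isopentenyl diphosphate, Idi1 isomerises it, and Fdps builds farnesyl diphosphate. Idi1 (ENSMUSG00000058258) was at 12.2, 14.9 and 14.1 FPKM in the control, 15.6, 16.3 and 16.5 after TBHQ, 11.3, 11.6 and 13.0 after LPS and 13.0, 14.4 and 14.1 after PIC. Idi1 with TBHQ before the stimulus was at 11.4, 11.9 and 11.5 FPKM under LPS and 12.2, 9.74 and 11.8 under PIC. TBHQ alone was the highest group, above every control library, and the PIC group lay among the control values in FPKM. After PIC the log2FC of Idi1 was -0.01 with no call, and with libraries scaled by their totals it was a called fall (-0.23, FDR 0.00534). The rise of Idi1 after TBHQ (log2FC 0.23 ± 0.0865, FDR 0.0122) was lost without control replicate 1 (0.15, FDR 0.133). Its fall after LPS (-0.21, FDR 0.0162) was lost without control replicate 2 or 3 or LPS replicate 1 or 2 (-0.19 to -0.15, FDR 0.0621 to 0.129). When TBHQ preceded PIC, Idi1 fell (log2FC -0.28 ± 0.113, FDR 0.00292), with all 3 libraries below every PIC library.

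Fdps (ENSMUSG00000059743) was low and scattered, with 60 to 149 counts in a library. Its FPKM was 2.28, 1.84 and 1.79 in the control, 1.60, 2.17 and 1.95 after TBHQ, 1.52, 1.79 and 2.06 after LPS and 1.71, 1.03 and 1.25 after PIC. Fdps with TBHQ before the stimulus was at 1.76, 1.73 and 1.96 FPKM under LPS and 1.61, 1.99 and 1.87 under PIC. The PIC group held the lowest values but overlapped both the LPS and the PIC+TBHQ groups. Fdps fell after PIC (log2FC -0.59 ± 0.236, FDR 0.00216). Its rise when TBHQ preceded PIC (log2FC 0.47 ± 0.227, FDR 0.0269) was lost without PIC replicate 2 or 3 or PIC+TBHQ replicate 2 or 3 (0.31 to 0.45, FDR 0.0759 to 0.195). Mvd, at 26.7 to 37.1 FPKM, fell after PIC (-0.23, FDR 0.00166), a call lost without control replicate 2 (-0.14, FDR 0.0505), and rose when TBHQ preceded PIC (0.22, FDR 0.00561), lost without PIC replicate 1 or PIC+TBHQ replicate 1 (0.16 to 0.17, FDR 0.0651 to 0.0851).

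From farnesyl diphosphate, Fdft1 makes squalene, Sqle oxidises it and Lss closes it into lanosterol. Fdft1 (13.1 to 15.9 FPKM) fell after PIC (log2FC -0.18 ± 0.0308, FDR 0.00233), and it had no call by edgeR with TMM after TBHQ, after LPS or with TBHQ before either stimulus. After LPS it was at log2FC -0.11, which with libraries scaled by their totals was a called fall (-0.20, FDR 0.00083). Sqle (25.0 to 30.8 FPKM) fell after LPS (log2FC -0.20 ± 0.0345, FDR 6.79e-05) and after PIC (log2FC -0.15 ± 0.0397, FDR 0.00103). When TBHQ preceded LPS, Sqle rose (0.12, FDR 0.0196), a call lost without LPS replicate 1 or LPS+TBHQ replicate 1 (0.11, FDR 0.0735 to 0.0926). Lss (11.4 to 14.4 FPKM) behaved otherwise. It rose after TBHQ (log2FC 0.18 ± 0.0351, FDR 0.00076), when TBHQ preceded LPS (log2FC 0.23 ± 0.0468, FDR 5.24e-05) and when TBHQ preceded PIC (log2FC 0.19 ± 0.0225, FDR 0.000533). After LPS alone Lss was at log2FC 0.01 and after PIC alone at -0.00, neither of them called, but PIC gave -0.22 and a call with libraries scaled by their totals (FDR 1.52e-05).

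The next enzymes strip methyl groups from the sterol ring. Cyp51, the lanosterol demethylase (21.3 to 28.1 FPKM), fell after PIC (log2FC -0.22 ± 0.0378, FDR 0.000115), and its fall after LPS (-0.13, FDR 0.0236) was lost without control replicate 2 or 3 or LPS replicate 1 (-0.12 to -0.07, FDR 0.0768 to 0.264). Tm7sf2, a sterol reductase (ENSMUSG00000024799), had 72 to 179 counts in a library. Its FPKM was 2.44, 2.20 and 2.41 in the control, 1.88, 2.10 and 2.09 after TBHQ, 1.49, 1.44 and 1.89 after LPS and 1.26, 1.18 and 1.15 after PIC. Tm7sf2 with TBHQ before the stimulus was at 2.02, 1.95 and 1.94 FPKM under LPS and 1.92, 1.69 and 1.56 under PIC. The 3 PIC libraries were the lowest of all 18, and each group with TBHQ before the stimulus lay above its stimulus alone without overlap. Tm7sf2 fell after LPS (log2FC -0.56 ± 0.130, FDR 0.000347) and had the largest fall of the sterol branch after PIC (log2FC -0.99 ± 0.0611, FDR 4.19e-08). When TBHQ preceded PIC it rose (log2FC 0.54 ± 0.0956, FDR 0.00245), the largest rise of any member in that comparison. Under LPS the same difference was 0.30 with no call (FDR 0.0919), and the test of the difference between the stimuli gave 0.24 (FDR 0.617).

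Msmo1 and Nsdhl act in the removal of methyl groups together with Hsd17b7, a sterol ketone reductase. Hsd17b7 (ENSMUSG00000026675) was at 8.73, 9.25 and 8.89 FPKM in the control, 12.4, 12.3 and 11.5 after TBHQ, 9.66, 11.3 and 10.5 after LPS and 10.1, 9.01 and 11.1 after PIC. Hsd17b7 with TBHQ before the stimulus was at 11.7, 11.9 and 11.5 FPKM under LPS and 10.6, 11.1 and 11.5 under PIC. Every treated library lay above the control range except 1 of the PIC group, which lay within it. Hsd17b7 rose after TBHQ (log2FC 0.42 ± 0.0439, FDR 1.54e-06). It rose after LPS (log2FC 0.22 ± 0.0709, FDR 0.00452), a call lost with libraries scaled by their totals (0.13, FDR 0.0908). Its rise after PIC (0.16, FDR 0.0316) was lost without control replicate 1 or 3 or PIC replicate 3 (0.09 to 0.15, FDR 0.0783 to 0.25), and the direction turned to -0.06 with libraries scaled by their totals. Nsdhl (14.1 to 17.8 FPKM) fell after LPS (log2FC -0.21 ± 0.0625, FDR 0.0044). Msmo1 (20.3 to 25.9 FPKM) was the 1 member with no call by edgeR with TMM in any of the 9 comparisons run. With libraries scaled by their totals it was called lower after LPS (-0.16, FDR 0.0263), after PIC (-0.22, FDR 0.00202) and with TBHQ and PIC against the control (-0.15, FDR 0.0376), and with no filter it was called higher when TBHQ preceded LPS (0.13, FDR 0.0443). Without control replicate 1 Msmo1 was called lower after LPS (-0.16).

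The last steps shift and reduce the double bonds of the ring. Ebp, the sterol isomerase, was at 15.9 ± 1.79 FPKM (SD, n = 3) in the control, 12.5 ± 0.393 after LPS and 11.4 ± 0.763 after PIC. It fell after LPS (log2FC -0.35 ± 0.0983, FDR 0.00018) and after PIC (log2FC -0.49 ± 0.110, FDR 8.28e-07). Its rise when TBHQ preceded LPS (0.21, FDR 0.0379) was lost without LPS replicate 1 or 2 or LPS+TBHQ replicate 1 or 3 (0.18 to 0.21, FDR 0.0784 to 0.153), and the rise when TBHQ preceded PIC (0.23, FDR 0.0225) was lost without PIC replicate 1 or 2 or PIC+TBHQ replicate 2 or 3 (0.16 to 0.23, FDR 0.0557 to 0.169). Sc5d, a sterol desaturase (10.9 to 13.7 FPKM), fell after TBHQ (-0.18, FDR 0.017), a call lost without control replicate 2 (-0.15, FDR 0.0902). Dhcr7, a reductase of the final steps, had group means of 9.25 ± 0.381 FPKM (SD, n = 3) in the control, 7.999 ± 0.291 after TBHQ, 7.40 ± 0.192 after LPS and 5.84 ± 0.328 after PIC. Dhcr7 fell after TBHQ (log2FC -0.21 ± 0.0453, FDR 0.00921), after LPS (log2FC -0.33 ± 0.0414, FDR 5.34e-05) and after PIC (log2FC -0.68 ± 0.0571, FDR 4.45e-11). When TBHQ preceded PIC it rose (log2FC 0.42 ± 0.1, FDR 7.59e-06), and the rise when TBHQ preceded LPS (0.20, FDR 0.0226) was lost without LPS replicate 1 or 3 or LPS+TBHQ replicate 2 (0.15 to 0.20, FDR 0.0535 to 0.148).

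Regulation and transport were read from Insig1, which holds SREBP in the endoplasmic reticulum, Srebf2, which encodes the sterol-directed SREBP, and Stard4, a carrier of cholesterol within the cell. Insig1 (ENSMUSG00000045294) was at 37.9, 39.9 and 37.6 FPKM in the control, 32.2, 32.03 and 33.6 after TBHQ, 37.1, 39.2 and 40.0 after LPS and 54.9, 53.0 and 54.0 after PIC. Insig1 with TBHQ before the stimulus was at 38.6, 36.8 and 38.4 FPKM under LPS and 43.7, 43.6 and 46.4 under PIC. The PIC libraries were the 3 highest of the 18, the PIC+TBHQ libraries came next, and LPS libraries overlapped the control. Insig1 rose after PIC (log2FC 0.47 ± 0.0309, FDR 3.19e-12), the largest rise of any member in that comparison, and LPS gave 0.00 with no call. It was also higher after PIC than after LPS (log2FC 0.47 ± 0.0377, FDR 4.32e-11). Insig1 fell after TBHQ alone (log2FC -0.24 ± 0.0334, FDR 3.17e-05) and when TBHQ preceded PIC (log2FC -0.27 ± 0.0340, FDR 3.4e-06). With TBHQ before LPS the value was -0.03 (FDR 0.65).

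Srebf2 had group means of 40.7 ± 0.892 FPKM (SD, n = 3) in the control, 47.5 ± 2.52 after TBHQ, 33.6 ± 1.89 after LPS and 34.99 ± 0.127 after PIC. It rose after TBHQ (log2FC 0.22 ± 0.0475, FDR 7.07e-05) and fell after LPS (log2FC -0.29 ± 0.0494, FDR 4.29e-07) and PIC (log2FC -0.24 ± 0.0187, FDR 7.51e-06). Its rise when TBHQ preceded LPS (0.12, FDR 0.0309) was lost without LPS replicate 1 or 2 or LPS+TBHQ replicate 3 (0.09 to 0.10, FDR 0.123 to 0.165). The rise when TBHQ preceded PIC (0.11, FDR 0.0431) was lost with DESeq2, RLE size factors, a mean of at least 50 counts, both limma fits and the members left out of the scaling genes (0.09 to 0.10, FDR 0.0796 to 0.121), and without LPS replicate 1, 2 or 3 or PIC replicate 1, 2 or 3 or PIC+TBHQ replicate 1 or 3 (0.06 to 0.12, FDR 0.0546 to 0.333). Stard4 (ENSMUSG00000024378) was at 12.9, 12.2 and 12.2 FPKM in the control, 10.4, 10.6 and 11.2 after TBHQ, 9.91, 8.69 and 9.74 after LPS and 7.58, 8.94 and 9.09 after PIC. Stard4 with TBHQ before the stimulus was at 9.16, 9.64 and 9.67 FPKM under LPS and 7.96, 7.98 and 8.89 under PIC. Every treated library lay below every control library, and the groups with and without TBHQ overlapped under both stimuli. Stard4 fell after TBHQ (log2FC -0.21 ± 0.0438, FDR 0.00547), after LPS (log2FC -0.41 ± 0.0642, FDR 7.73e-07) and after PIC (log2FC -0.56 ± 0.0873, FDR 7.84e-10).

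**Figure D1:**
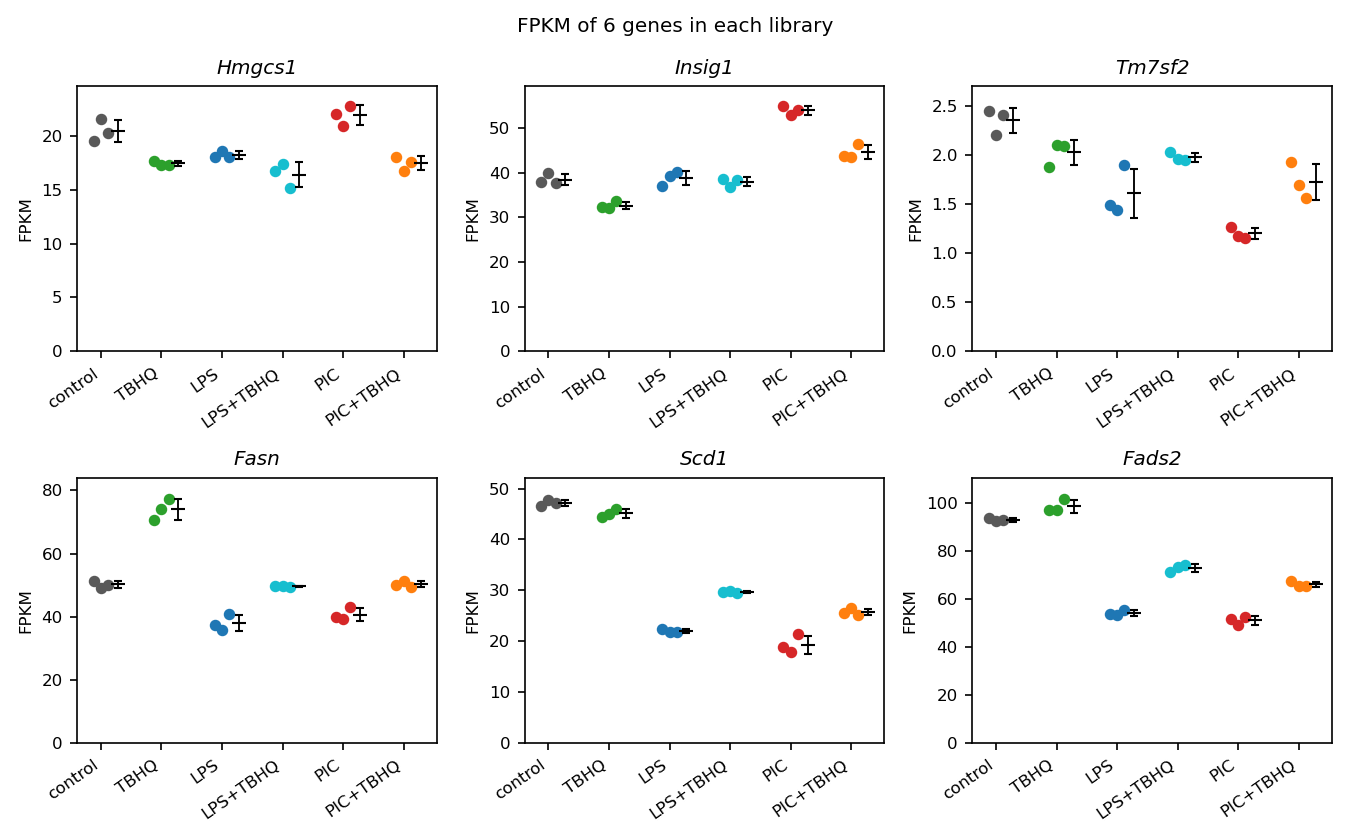
FPKM of Hmgcs1, Insig1, Tm7sf2, Fasn, Scd1 and Fads2 in each of the 18 libraries (points, y axis from 0) by group (x axis), with the mean and SD of the 3 libraries. Insig1 was highest after PIC, at 54.9, 53.0 and 54.0 FPKM, and Scd1 was lowest after PIC, at 18.7, 17.8 and 21.3 FPKM.

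Fatty acid synthesis starts from acetyl-CoA, which Acly makes from citrate and Acss2 from acetate. Acly (ENSMUSG00000020917) was at 66.7, 69.8 and 69.7 FPKM in the control, 75.5, 75.8 and 77.4 after TBHQ, 75.7, 76.0 and 77.8 after LPS and 86.8, 87.3 and 90.04 after PIC. Acly with TBHQ before the stimulus was at 77.0, 77.8 and 76.9 FPKM under LPS and 80.6, 82.2 and 79.6 under PIC. The control was the lowest group and PIC the highest, and no treated library reached down to the control. Acly was the 1 fatty acid gene that rose after PIC (log2FC 0.34 ± 0.0257, FDR 9.54e-12), and also after LPS (log2FC 0.15 ± 0.0242, FDR 0.00017), where the call was lost with libraries scaled by their totals (0.06, FDR 0.12). It rose after TBHQ (log2FC 0.15 ± 0.0228, FDR 0.000395) and fell when TBHQ preceded PIC (log2FC -0.11 ± 0.0192, FDR 0.0047), which was lost with libraries scaled by their totals (-0.04, FDR 0.296). Acss2 (ENSMUSG00000027605) was at 2.62, 3.01 and 2.92 FPKM in the control, 3.13, 2.73 and 2.88 after TBHQ, 2.42, 2.12 and 2.67 after LPS and 1.80, 2.03 and 1.94 after PIC. Acss2 with TBHQ before the stimulus was at 3.25, 3.46 and 3.23 FPKM under LPS and 2.34, 2.42 and 2.67 under PIC. PIC libraries were the lowest, and the LPS+TBHQ libraries were above every other library of the gene. Acss2 fell after PIC (log2FC -0.58 ± 0.0778, FDR 2.2e-07) and had the largest rise of any member when TBHQ preceded LPS (log2FC 0.46 ± 0.0988, FDR 2.9e-05). It also rose when TBHQ preceded PIC (log2FC 0.38 ± 0.0751, FDR 0.000706), and its fall after LPS (-0.25, FDR 0.00999) was lost without control replicate 2 or LPS replicate 2 (-0.21 to -0.16, FDR 0.0612 to 0.136).

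Acaca carboxylates acetyl-CoA and Fasn builds the chain. Acaca (ENSMUSG00000020532) was at 6.15, 6.26 and 6.52 FPKM in the control, 8.52, 8.05 and 7.84 after TBHQ, 5.37, 5.53 and 5.75 after LPS and 4.72, 4.95 and 5.21 after PIC. Acaca with TBHQ before the stimulus was at 6.16, 6.31 and 6.16 FPKM under LPS and 5.93, 5.82 and 5.84 under PIC. TBHQ alone was the highest group and the PIC group the lowest, and neither overlapped another group. Acaca rose after TBHQ (log2FC 0.36 ± 0.0438, FDR 2.53e-08) and fell after LPS (log2FC -0.19 ± 0.0378, FDR 0.000433) and PIC (log2FC -0.36 ± 0.0465, FDR 9.93e-09). With TBHQ before PIC it rose (log2FC 0.25 ± 0.0411, FDR 3.67e-05), and the rise with TBHQ before LPS (0.16, FDR 0.00662) was lost without LPS replicate 1 (0.13, FDR 0.0536). Fasn (ENSMUSG00000025153) was at 51.4, 49.2 and 50.02 FPKM in the control, 70.7, 74.1 and 77.2 after TBHQ, 37.2, 35.8 and 40.8 after LPS and 39.8, 39.1 and 43.0 after PIC. Fasn with TBHQ before the stimulus was at 49.8, 49.6 and 49.3 FPKM under LPS and 50.2, 51.2 and 49.4 under PIC. TBHQ alone stood clear above all other libraries, both stimuli alone stood below the control, and both groups with TBHQ beforehand lay within the control range. Fasn had the largest rise of any member after TBHQ (log2FC 0.56 ± 0.0394, FDR 8.93e-14). It fell after LPS (log2FC -0.41 ± 0.0581, FDR 5.28e-11) and PIC (log2FC -0.32 ± 0.0445, FDR 9.11e-09), and rose when TBHQ preceded LPS (log2FC 0.38 ± 0.0553, FDR 1.12e-09) or PIC (log2FC 0.32 ± 0.0429, FDR 5.82e-08).

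Scd1 puts the first double bond into a saturated chain, and Elovl6 lengthens such chains. Scd1 (ENSMUSG00000037071) was at 46.6, 47.7 and 47.2 FPKM in the control, 44.3, 44.9 and 46.1 after TBHQ, 22.4, 21.7 and 21.7 after LPS and 18.7, 17.8 and 21.3 after PIC. Scd1 with TBHQ before the stimulus was at 29.7, 29.8 and 29.4 FPKM under LPS and 25.5, 26.5 and 25.2 under PIC. Every library with a stimulus lay below the lowest control library, and the groups with TBHQ beforehand stood between the stimulus alone and the control without overlap. Scd1 had the largest fall of any member after LPS (log2FC -1.11 ± 0.0156, FDR 1.06e-21) and after PIC (log2FC -1.30 ± 0.0759, FDR 5.25e-24). It rose when TBHQ preceded LPS (log2FC 0.43 ± 0.0133, FDR 1.19e-09) and PIC (log2FC 0.42 ± 0.0778, FDR 2.71e-09), while TBHQ alone gave -0.07 (FDR 0.243). Elovl6 (ENSMUSG00000041220) was at 8.21, 8.49 and 8.24 FPKM in the control, 9.34, 9.20 and 8.95 after TBHQ, 4.67, 5.35 and 5.52 after LPS and 3.79, 3.58 and 3.76 after PIC. Elovl6 with TBHQ before the stimulus was at 6.38, 6.59 and 6.53 FPKM under LPS and 5.10, 5.47 and 5.48 under PIC. The order PIC, LPS, control held without overlap, and each pre-treated group lay above its stimulus alone. Elovl6 fell after LPS (log2FC -0.69 ± 0.0771, FDR 5.52e-12) and after PIC (log2FC -1.18 ± 0.0304, FDR 3.68e-18), and PIC was lower than LPS (log2FC -0.49 ± 0.0797, FDR 4.35e-07). It rose when TBHQ preceded LPS (log2FC 0.32 ± 0.0767, FDR 0.000105) and PIC (log2FC 0.54 ± 0.0422, FDR 4.52e-08).

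Fads1 and Fads2 desaturate polyunsaturated chains and are neighbours on chromosome 19. Fads2 (ENSMUSG00000024665) was at 94.0, 92.5 and 92.9 FPKM in the control, 97.3, 97.2 and 102 after TBHQ, 53.6, 53.5 and 55.4 after LPS and 51.5, 49.2 and 52.5 after PIC. Fads2 with TBHQ before the stimulus was at 71.2, 73.6 and 74.1 FPKM under LPS and 67.5, 65.4 and 65.7 under PIC. Stimulated libraries without TBHQ were the lowest, those with TBHQ stood above them and below every control library, and TBHQ alone lay above every control library without a call (0.08, FDR 0.0683), though DESeq2, a mean of at least 50 counts and both limma fits called it (0.08 to 0.09, FDR 0.0302 to 0.0409). Fads2 fell after LPS (log2FC -0.79 ± 0.0183, FDR 5.18e-20) and PIC (log2FC -0.88 ± 0.0282, FDR 8.67e-22), and rose when TBHQ preceded LPS (log2FC 0.43 ± 0.0247, FDR 6.37e-12) or PIC (log2FC 0.38 ± 0.0311, FDR 1.02e-10). Fads1 had group means of 65.6 ± 0.719 FPKM (SD, n = 3) in the control, 72.5 ± 0.689 after TBHQ, 50.8 ± 2.15 after LPS and 45.7 ± 1.59 after PIC, and of 65.3 ± 1.29 and 62.5 ± 0.415 with TBHQ before LPS and PIC. Fads1 rose after TBHQ (log2FC 0.14 ± 0.0110, FDR 0.00189), fell after LPS (log2FC -0.38 ± 0.0382, FDR 3.11e-11) and PIC (log2FC -0.54 ± 0.0285, FDR 1.62e-15), and rose when TBHQ preceded LPS (log2FC 0.36 ± 0.0409, FDR 3.85e-10) or PIC (log2FC 0.46 ± 0.0278, FDR 8.08e-13).

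TBHQ alone was set against the control, where time and treatment cannot be told apart. In this comparison the fatty acid branch leaned upward and the sterol branch was mixed. Of the 29 members, 8 rose (14.2% of all genes tested did) and 5 fell (14.8% of all genes). Fatty acid genes that rose were Fasn, Acaca, Acly and Fads1, and the other 4 were not called. Of those, Fads2 was called higher with DESeq2, a mean of at least 50 counts and both limma fits (0.08 to 0.09, FDR 0.0302 to 0.0409), and Elovl6 with only the groups compared or a mean of at least 50 counts (0.14, FDR 0.0392 to 0.046). In the sterol branch Idi1, Lss, Hsd17b7 and Srebf2 rose, and Hmgcs1, Sc5d, Dhcr7, Insig1 and Stard4 fell. The call of Idi1 was lost without control replicate 1 (0.15, FDR 0.133), and that of Sc5d without control replicate 2 (-0.15, FDR 0.0902). The median log2FC was 0.14 in the fatty acid branch and -0.03 in the sterol branch, beside -8.57e-05 over all genes tested. For 19 of the 29 members the TBHQ and control libraries did not overlap in FPKM, and the same held for 41.0% of all genes.

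LPS alone shows how a bacterial signal moved these genes, and the common direction was downward. Of the 29 members, 19 fell (24.1% of all genes tested did) and 2 rose (24.0% of all genes). The fall covered 7 of the 8 fatty acid genes, led by Scd1 at -1.11, Fads2 at -0.79 and Elovl6 at -0.69, and 12 of the 21 sterol genes, led by Tm7sf2 at -0.56. Hsd17b7 and Acly rose. The median log2FC was -0.39 in the fatty acid branch and -0.18 in the sterol branch, beside -0.00396 over all genes. LPS and control libraries did not overlap for 20 members, and for 53.6% of all genes. With libraries scaled by their totals, which moved the median of all genes by -0.0879, 23 members fell (33.3% of all genes did) and the calls of both rising genes were lost (17.9% of all genes rose). The falls gained with that scaling were those of Mvd, Fdft1, Msmo1 and Sc5d. Of all calls, 35% were rises with that scaling and 49.8% without it.

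PIC alone shows how a signal like viral RNA moved these genes, and most of the called members fell. Of the 29 members, 19 fell (30.1% of all genes tested did) and 3 rose (28.6% of all genes). The largest falls among members were those of Scd1 at -1.30, Elovl6 at -1.18 and Tm7sf2 at -0.99. The falls again covered 7 of 8 fatty acid genes and 12 of 21 sterol genes, while Insig1, Acly and Hsd17b7 rose. The call of Hsd17b7 was lost without control replicate 1 or 3 or PIC replicate 3 (0.09 to 0.15, FDR 0.0783 to 0.25). The median log2FC was -0.56 in the fatty acid branch and -0.18 in the sterol branch, beside -0.01 over all genes. PIC and control libraries did not overlap for 21 members, and for 62.4% of all genes. Scaling by library totals moved the median of all genes by -0.217, gave 26 members falling (48.5% of all genes did) and 2 rising (17.4% of all genes), and took the share of rises among all calls from 48.7% to 26.4%. The falls gained with that scaling were those of Hmgcs1, Pmvk, Idi1, Lss, Msmo1, Nsdhl and Sc5d. At the threshold the study used, an FDR below 0.01 with a |log2FC| above 2, edgeR called 0 members after LPS (1.64% of all genes) and 0 after PIC (3.57% of all genes). At an unadjusted p below 0.05 with the same |log2FC| the count was 0 in both, DESeq2 also gave 0, and the largest |log2FC| of any member was 1.11 after LPS and 1.304 after PIC.

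**Figure D2:**
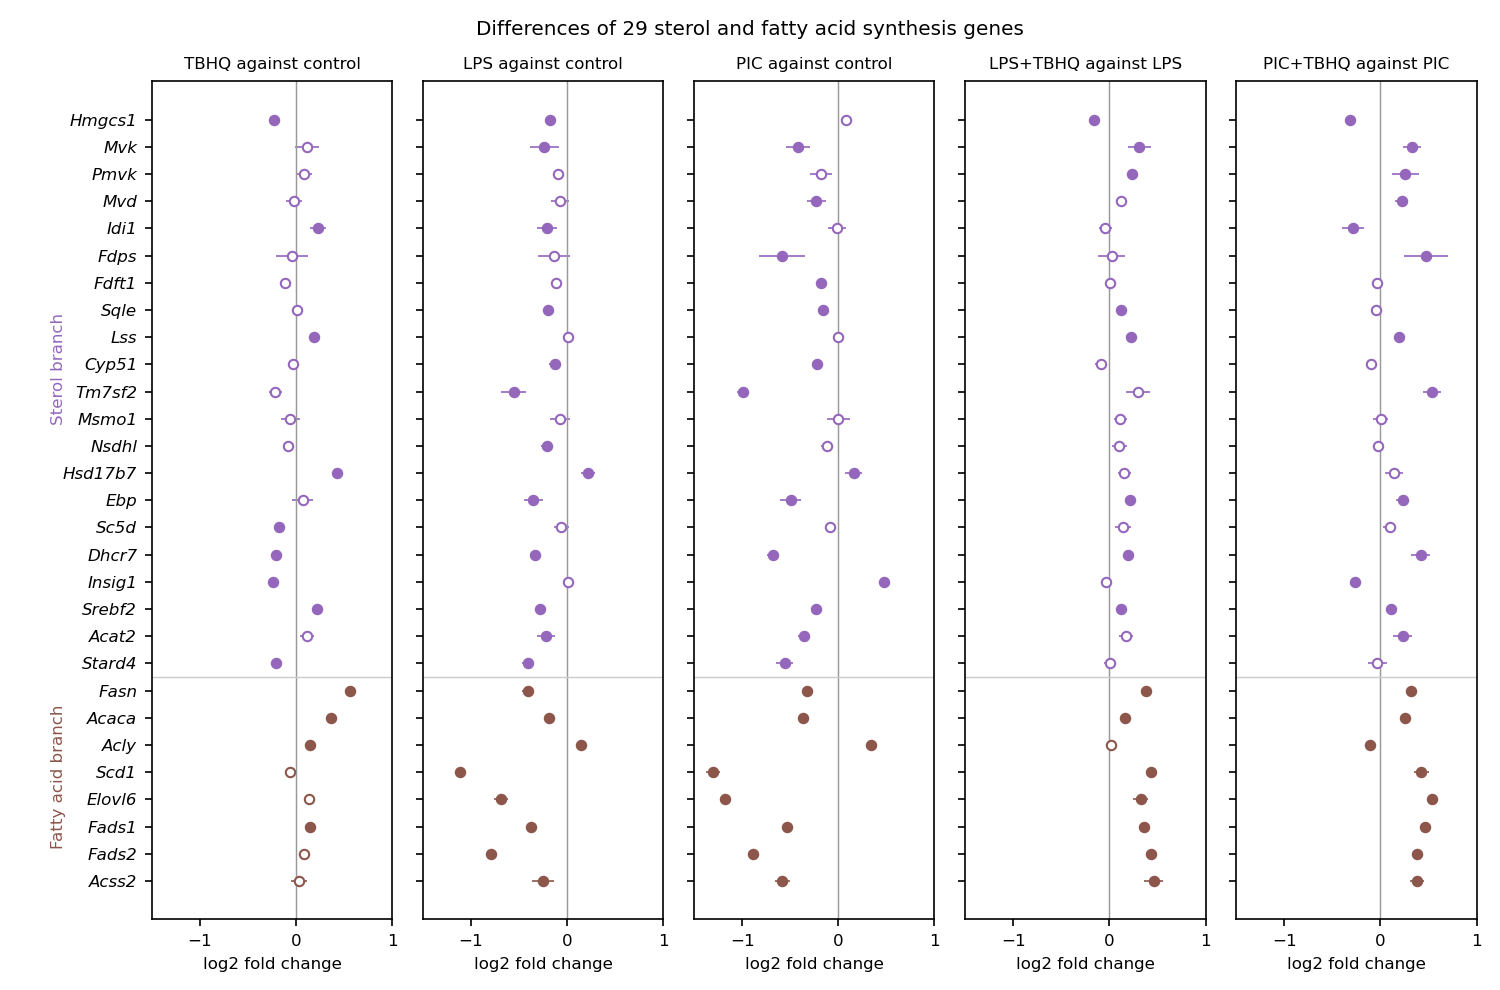
Differences (log2FC, x axis) of the 29 members (y axis) in 5 comparisons, with bars for the SE, filled points at an FDR below 0.05 and open points otherwise, and the sterol branch in purple above the fatty acid branch in brown. After LPS 19 members fell (24.1% of all genes did) and after PIC 19 fell (30.1% of all genes). When TBHQ preceded LPS 14 rose (11.7% of all genes), or 7 without LPS replicate 1. When TBHQ preceded PIC 17 rose (15.8% of all genes), or 12 to 17 with a library left out.

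TBHQ before LPS asks whether the pre-treatment changed the state of stimulated cells. Most of the called members were higher than with LPS alone. Of the 29 members, 14 rose (11.7% of all genes tested did) and 1 fell (12.2% of all genes), which was Hmgcs1. All fatty acid genes but Acly rose, with Acss2 at 0.46, Scd1 at 0.43, Fads2 at 0.43 and Fasn at 0.38. In the sterol branch 7 rose, among them Lss at 0.23. The median log2FC was 0.37 in the fatty acid branch and 0.12 in the sterol branch, beside 0.00229 over all genes. The libraries of both groups did not overlap for 19 members, and for 35.8% of all genes. Leaving out LPS replicate 1 left 7 rises and gave 2 falls among the members. Of all 14011 genes in that fit 1231 rose and 1368 fell, against 1601 and 1673 of 13691 with every library. The fall of Hmgcs1 was gone, with 0 falls by edgeR, without LPS replicate 2 or LPS+TBHQ replicate 3. In those fits 1382 of 14020 and 1372 of 13996 genes fell. With libraries scaled by their totals 17 rose (15.1% of all genes did) and 0 fell (10.2% of all genes), and 59.5% of all calls were rises in place of 48.9%.

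TBHQ before PIC asks the same of cells given PIC, and most of the called members were again higher than with the stimulus alone. In all, 17 of the 29 members rose (15.8% of all genes tested did) and 4 fell (15.5% of all genes). Again all fatty acid genes but Acly rose, with Elovl6 at 0.54, Fads1 at 0.46 and Scd1 at 0.42. In the sterol branch 10 rose, among them Tm7sf2 at 0.54 and Dhcr7 at 0.42, and Hmgcs1, Idi1 and Insig1 fell, as did Acly of the fatty acid branch. The calls of Mvk, Pmvk, Mvd, Fdps, Ebp, Srebf2 and Acat2 were each lost in some fit with a library left out. The members that rose ranged over 12 to 17 in those fits. The median log2FC was 0.38 in the fatty acid branch and 0.11 in the sterol branch, beside 0.01 over all genes. The libraries of both groups did not overlap for 19 members, and for 41.8% of all genes. Scaling by library totals gave 19 rises (24.8% of all genes) and 3 falls (10.5% of all genes), and 70.3% of all calls were then rises in place of 50.6%.

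Whether TBHQ acted differently under the 2 stimuli was tested directly, as its effect under PIC minus its effect under LPS. By edgeR 1 member was lower (1.01% of all genes tested were) and 0 were higher (0.825% of all genes). At an unadjusted p below 0.05 there were 5 lower (6.86% of all genes) and 2 higher (7.31% of all genes). DESeq2 gave 3 lower (2.06% of all genes) and 0 higher (0.884% of all genes), and the 3 were Insig1, Acly (-0.14, FDR 0.0182) and Sqle (-0.19, FDR 0.0371). The gene lower by edgeR was Insig1 (log2FC -0.23 ± 0.0531, FDR 0.0287), where TBHQ gave -0.27 under PIC and -0.03 under LPS. The Insig1 call was lost without LPS replicate 1 or PIC replicate 1 or LPS+TBHQ replicate 1 or 3 or PIC+TBHQ replicate 1 or 2 (-0.24 to -0.20, FDR 0.05 to 0.0856), and with libraries scaled by their totals (-0.19, FDR 0.0786). For the other 28 members edgeR made no call on the difference between stimuli, and among the alternatives run only DESeq2 called any of them, Acly and Sqle; a missed threshold does not make the effects equal.

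PIC and LPS were also compared without TBHQ. Among the 29 members, 8 were lower after PIC (12.8% of all genes tested were) and 4 were higher (14.9% of all genes). The fatty acid genes Acaca, Scd1, Elovl6, Fads1 and Acss2 were lower, as were Fdps, Tm7sf2 and Dhcr7. Fads2 (-0.09, FDR 0.0521) was not called. With libraries scaled by their totals it was called lower (-0.22, FDR 6.34e-06). A mean of at least 50 counts, the replicate block and both limma fits also called Fads2 lower (-0.09 to -0.08, FDR 0.0391 to 0.0476). Higher after PIC were Hmgcs1 (log2FC 0.26 ± 0.0390, FDR 0.000111), Idi1 (0.20, FDR 0.0394), Insig1 and Acly (log2FC 0.19 ± 0.0197, FDR 7.75e-06). The call of Idi1 was lost without LPS replicate 1 or 2 or PIC replicate 2 or 3 (0.16 to 0.19, FDR 0.104 to 0.173), that of Fdps (-0.45, FDR 0.0424) without LPS replicate 2 or 3 or PIC replicate 2 or 3 (-0.44 to -0.30, FDR 0.0836 to 0.241), and that of Tm7sf2 (-0.43, FDR 0.0181) without LPS replicate 3 or PIC replicate 3 (-0.40 to -0.30, FDR 0.0625 to 0.167). With only the groups compared in the fit, Fdps (-0.44, FDR 0.0717) and Tm7sf2 (-0.43, FDR 0.0526) were not called. In that fit 6 members were lower, as were 1464 of all 12750 genes. Both limma fits also lost Fdps (-0.42 to -0.27, FDR 0.0733 to 0.0793) and Idi1 (0.19 to 0.21, FDR 0.0779 to 0.0787). The call of Acss2 (-0.33, FDR 0.00371) was lost without LPS replicate 3 (-0.24, FDR 0.0567), and that of Acaca (-0.17, FDR 0.00443) without PIC replicate 1 (-0.13, FDR 0.0533). Without LPS replicate 3 the number lower was 5, and 1353 of all 14018 genes in that fit were lower. Scaling by library totals moved the median of all genes by -0.129 and gave 19 lower (31.9% of all genes) and 2 higher (7.19% of all genes), with 18.4% of all calls higher in place of 53.7%; the calls of Idi1 (0.07, FDR 0.478) and Acly (0.06, FDR 0.106) were then lost.

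The groups with TBHQ and a stimulus were set against the untreated control as well, and these comparisons share the control libraries with the comparisons of single treatments. With TBHQ and LPS, 8 members fell (22.5% of all genes tested did) and 4 rose (21.2% of all genes). With TBHQ and PIC, 16 fell (26.0% of all genes tested did) and 4 rose (26.4% of all genes). Scd1 fell in both, by 0.68 with LPS and by 0.88 with PIC on the log2 scale, as did Fads2 (-0.36 and -0.50) and Elovl6 (-0.36 and -0.64). Fasn was at -0.03 with LPS (FDR 0.612) and -0.00 with PIC (FDR 0.934), neither called, though PIC gave a fall (-0.15, FDR 0.00087) with libraries scaled by their totals. Hsd17b7, Lss and Acly rose in both, and Insig1 (0.21) rose in the PIC set; Lss (0.04, FDR 0.48) and Insig1 (0.06, FDR 0.243) were not called there with libraries scaled by their totals. Acss2 rose with LPS (0.21, FDR 0.0279), lost without control replicate 1 or LPS+TBHQ replicate 2 (0.15 to 0.18, FDR 0.111 to 0.165) and with total scaling (0.15, FDR 0.13), and fell with PIC (-0.21, FDR 0.0323), lost without control replicate 2 or 3 or PIC+TBHQ replicate 1 or 2 (-0.19 to -0.16, FDR 0.0861 to 0.142). Scaling by totals gave 14 falls (29.5% of all genes) and 3 rises (16.7% of all genes) with TBHQ and LPS. With TBHQ and PIC it gave 23 falls (40.3% of all genes) and 2 rises (17.3% of all genes), where it moved the median of all genes by -0.149. Of all calls, 36.1% (in place of 48.4%) and 30% (in place of 50.4%) were then rises.

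Seen as branch levels, the median FPKM of the 8 fatty acid genes was 48.7 ± 0.271 in the control (SD, n = 3), 58.6 ± 0.972 after TBHQ, 29.9 ± 1.26 after LPS and 29.97 ± 1.93 after PIC. With TBHQ beforehand it was 39.6 ± 0.204 under LPS and 38.0 ± 0.792 under PIC. The median of the 21 sterol genes was 15.6 ± 0.286 in the control, 16.0 ± 0.449 after TBHQ, 14.2 ± 0.119 after LPS and 13.7 ± 0.744 after PIC. With TBHQ beforehand the sterol median was 14.9 ± 0.325 under LPS and 13.7 ± 0.42 under PIC. A median of 8 genes rests on the middle pair, which was Scd1 and Fasn in every library except TBHQ replicates 2 and 3, where it was Scd1 and Fads1. The mean over all genes of a branch of the log2 ratio of FPKM to the control mean was therefore taken as well. For the fatty acid branch this mean was 0.16 to 0.18 after TBHQ, -0.49 to -0.40 after LPS and -0.62 to -0.53 after PIC. With TBHQ beforehand it was -0.15 to -0.11 under LPS and -0.28 to -0.26 under PIC, and none of these 5 groups overlapped another. For the sterol branch it was -0.05 to 0.02 after TBHQ, -0.22 to -0.11 after LPS and -0.24 to -0.18 after PIC. With TBHQ beforehand the sterol mean was -0.08 to -0.04 under LPS and -0.13 to -0.12 under PIC. In that measure each pre-treated group lay above its stimulus alone without overlap in both branches, while the sterol medians of PIC and PIC+TBHQ overlapped. With TBHQ before PIC, 13 of the 21 sterol genes had a positive log2FC and 8 a negative one, beside 7028 and 6663 of all genes. The largest in the branch were those of the low-count genes Tm7sf2 (0.54) and Fdps (0.47), which weigh in the mean like any other gene.

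**Figure D3:**
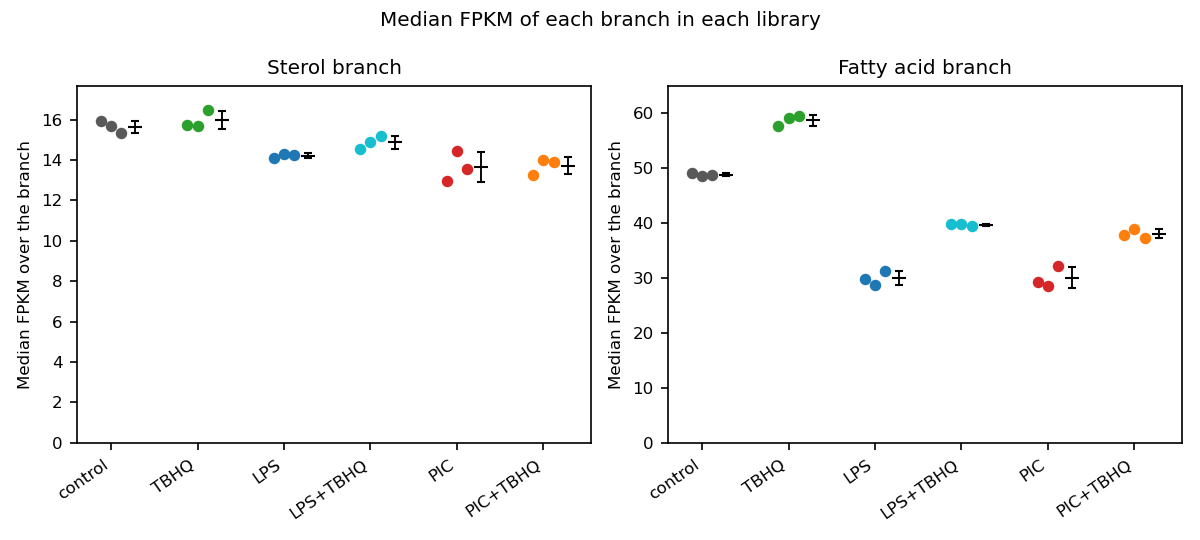
Median FPKM of the 21 sterol and the 8 fatty acid genes (y axis from 0) in each of the 18 libraries (points) by group (x axis), with the mean and SD of the 3 libraries. The fatty acid median was 48.7 FPKM in the control and 29.97 after PIC, and the sterol median 15.6 and 13.7.

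Related genes outside the members were followed by list, and the counts of each list stand beside the shares of all genes tested, of which 14.2% rose and 14.8% fell after TBHQ, 24.0% and 24.1% after LPS, and 28.6% and 30.1% after PIC. With TBHQ beforehand, 11.7% of all genes rose and 12.2% fell under LPS, and 15.8% and 15.5% under PIC. Of 5 other isoprenoid and sterol genes, 2 rose after TBHQ, 1 rose and 3 fell after LPS, and 2 rose and 3 fell after PIC. Lbr, a lamin B receptor that also has sterol reductase activity like Tm7sf2, fell after LPS (log2FC -0.94 ± 0.0502, FDR 1.91e-17) and PIC (log2FC -1.05 ± 0.0857, FDR 5.56e-19). Ggps1, which draws farnesyl diphosphate towards protein prenylation, rose after LPS (log2FC 0.53 ± 0.0934, FDR 1.82e-06) and PIC (log2FC 0.64 ± 0.12, FDR 2.48e-08). With TBHQ before LPS 2 of these 5 rose and 1 fell, and before PIC again 2 rose and 1 fell. Among 8 genes of SREBP processing and sterol sensing, 3 rose after TBHQ, 3 rose and 3 fell after LPS, and 3 rose and 2 fell after PIC. Scap, which escorts SREBP, fell after PIC (log2FC -0.27 ± 0.05, FDR 0.000485), and Insig2, the relative of Insig1, rose after PIC (log2FC 0.47 ± 0.0950, FDR 5.92e-06). With TBHQ before LPS 2 of the 8 fell, and before PIC 1 rose and 2 fell.

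Of 21 other genes of fatty acid and lipid assembly, 18 were tested: 2 rose and 5 fell after TBHQ, 5 rose and 7 fell after LPS, and 6 rose and 7 fell after PIC. With TBHQ beforehand, 7 rose and 1 fell under LPS, and 9 rose and 2 fell under PIC. Scd2, the other stearoyl desaturase in this list, fell after LPS (log2FC -0.64 ± 0.0252, FDR 6.5e-19) and PIC (log2FC -0.94 ± 0.0422, FDR 2.98e-24) and rose when TBHQ preceded either (0.23 and 0.34). Me1, which supplies NADPH, rose after TBHQ (log2FC 0.57 ± 0.0488, FDR 4.61e-11), LPS (log2FC 0.42 ± 0.0430, FDR 1.43e-08) and PIC (log2FC 0.57 ± 0.0601, FDR 7.65e-12). Of 9 oxysterol and LXR genes 7 were tested, of which 2 fell after TBHQ, 1 rose and 4 fell after LPS, and 3 rose and 3 fell after PIC. Cyp27a1, which makes an oxysterol, had the largest fall of that list after PIC (log2FC -1.81 ± 0.144, FDR 3.81e-15). With TBHQ before LPS 1 of the 7 rose and 1 fell, and before PIC 2 rose. Of 4 genes of cholesterol ester turnover and storage, 1 rose and 2 fell after TBHQ, 2 rose and 2 fell after LPS, and 2 rose and 2 fell after PIC. With TBHQ before LPS 2 of the 4 rose and 1 fell, and so too before PIC. Lipa, the lysosomal lipase, rose when TBHQ preceded LPS (log2FC 0.51 ± 0.0348, FDR 1.47e-13) or PIC (log2FC 0.52 ± 0.0333, FDR 1.03e-13), while Plin2 of lipid droplets fell (-0.25 and -0.20).

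The promoters of the members were searched for short motifs on both strands, from 250 bases before to 50 after the gene start, in RefSeq sequence of build GRCm38.p6. Sequence was matched for 23 of the 29 members, with 26 windows. Fdps, Fdft1, Sqle, Stard4, Scd1 and Fads1 had no window and were not searched. CCAAT, the NF-Y box, was in 16 of 20 sterol windows (80.0%) and 3 of 6 fatty acid windows (50%), beside 37.4% of all 32851 windows. GGGCGG, the GC box, was in 17 of 20 sterol windows (85.0%) and 3 of 6 fatty acid windows (50%), beside 35.7% of all windows. The sterol regulatory element TCACNCCAC was in 1 member window (3.85%), that of Hmgcs1, beside 1.24% of all windows. TGACNNNGC, the core of the antioxidant response element, was in 5 member windows (19.2%) of Acss2, Dhcr7, Hsd17b7, Mvk and Pmvk, beside 12.4% of all windows. The interferon-stimulated response element was in 1 member window (3.85%), that of Ebp, beside 3.44% of all windows. A match describes letters in a window and is neither a binding site nor a cause. The sites printed are those of Hmgcs1, the 1 member with the sterol element, of Insig1 and Fasn, which had the largest rises after PIC and after TBHQ, and of Mvk and Acss2, whose antioxidant core shares bases with a GC box. Hmgcs1 held 4 NF-Y box matches, Fasn 3 and Insig1 1, and the one nearest before the gene start is printed. The printed Fasn match shares bases with another of its matches, CCAAT on the strand of the gene, so these are not separate sites. Capitals mark the motif, which is read on either strand, and each line runs 5′ to 3′ along the gene.
Hmgcs1 sterol regulatory element: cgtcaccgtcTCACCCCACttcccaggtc
Hmgcs1 NF-Y box: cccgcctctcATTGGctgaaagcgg
Insig1 NF-Y box: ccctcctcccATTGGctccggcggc
Fasn NF-Y box: tcggtgtccaATTGGtttcgatgtg
Mvk antioxidant core: ggcccggggaTGACTCCGCcccgcagccg
Acss2 antioxidant core: cggtttttgcTGACCCCGCcccttcacgc
The printed motifs of Hmgcs1, a gene of the plus strand, lie at chr13:119690214-119690222 and chr13:119690306-119690310. That of Insig1, also of the plus strand, lies at chr5:28071196-28071200, and that of Fasn, a gene of the minus strand, at chr11:120824602-120824606. The NF-Y boxes printed read CCAAT on the strand opposite to their gene. The antioxidant cores lie at chr5:114444048-114444056 for Mvk and chr2:155517936-155517944 for Acss2, both on the plus strand. Elovl6 and Acaca held none of the 5 motifs in their windows.

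Some members share sequence with other genes, which bears on how fragments were counted. In transcripts of the GENCODE mouse annotation, over 10% of 50-base stretches were shared with another gene for 6 members: Hmgcs1 (11.6%, mostly with Gm48342), Idi1 (25.3%, Gm13502), Fdps (26.2%, Gm43738), Fdft1 (26.5%, Ctsb), Acat2 (39.1%, Acat3) and Acaca (30.4%, Gm5182). Fdft1 and Ctsb overlap on opposite strands, as do, among others, Cyp51 and Akap9, and Acss2 and the neighbouring Gss (6.13% of Acss2 shared, mostly with Gss). The strand setting of the counting is not stated, so the split of fragments in such pairs is uncertain. Fdps and Gm43738 overlap on the same strand, and so do Tm7sf2 and Vps51 (9.87% of Tm7sf2 shared). Whether fragments in those overlaps were left out of the low counts of Fdps and Tm7sf2 was not tested. Fasn, Acaca and Acly all lie on chromosome 11, and Scd1, Fads1, Fads2 and Tm7sf2 on chromosome 19, where the authors' table places Fads2 at 10040129 to 10079110 and Fads1 at 10160252 to 10174241. The build of that table is written as both GRCm38 and mm39, so its positions were not combined with those of the promoters.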

How the data were processed

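RNA from RAW 264.7 cells was measured in 18 libraries, 3 for each of 6 groups. Per the submitters' processing notes, reads were aligned with HISAT2 2.0.5, with StringTie 1.3.3b also named, and fragments were counted per gene with featureCounts 1.5.0-p3. The authors deposited raw counts per gene, with no normalization. The authors also deposited FPKM, which scale each count by the length of its gene and the total of its library, and further by 1 factor per library, as checked on the values. The libraries are described as strand-specific, though the labels name a directional and a non-directional kind, and the strand setting of the counting is not given in the sources used here, so fragments of overlapping genes may be shared.

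Counts were tested in R 4.3.3 with edgeR 4.0.16 (filterByExpr, TMM, glmQLFit and glmQLFTest, two-sided, 1 coefficient per group over 18 libraries), with Benjamini-Hochberg adjustment over the 13691 genes tested and calls at an FDR below 0.05. Of 56748 genes, 27701 had a count. Log2 CPM used a prior count of 2. FPKM served for levels only. Tables, promoter searches and figures used Python 3.11.15, pandas 2.3.3, numpy 2.4.6 and matplotlib 3.10.9. The method was tested on simulated data, and no result of that test is given or used here. The alternatives were DESeq2 1.42.0, only the groups compared, RLE size factors, total library size, no filter, a mean of at least 50 counts, a replicate block, 2 other thresholds, limma 3.58.1 on log2(FPKM + 1) and log2(FPKM + 0.1), leaving out each library, and FPKM with no further scaling. Leaving the members out of the scaling genes was chosen after seeing the data. Library values are given for 14 members, those among the 3 largest called rises or falls by log2FC in TBHQ, LPS or PIC against the control or in TBHQ before a stimulus against that stimulus; the other members are given by range, mean or count. From other lists, the largest called changes and genes whose role was needed are named. The members and lists were chosen with earlier results of these data known, so their counts and medians are descriptions, and no list was tested.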

Additional observations from a re-analysis of the deposited data

Results flagged for a closer look

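Insig1 was singled out because the effect of TBHQ differed between the stimuli by the test of that difference: the effect under PIC minus that under LPS was -0.23 on the log2 scale (FDR 0.0287, edgeR). Insig1 was at 54.9, 53.0 and 54.0 FPKM after PIC and 43.7, 43.6 and 46.4 with TBHQ before PIC, against 37.1, 39.2 and 40.0 after LPS and 38.6, 36.8 and 38.4 with TBHQ before LPS. When each of the 18 libraries was left out in turn, the call was lost without LPS replicate 1 (-0.20, FDR 0.0856), PIC replicate 1 (-0.24, FDR 0.05), LPS+TBHQ replicate 1 (-0.22, FDR 0.0813) or 3 (-0.22, FDR 0.068), or PIC+TBHQ replicate 1 (-0.22, FDR 0.0832) or 2 (-0.22, FDR 0.0726). It was also lost with libraries scaled by their totals (-0.19, FDR 0.0786).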

How the results depend on the processing

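Of 137 called results among 261 (29 members in 9 comparisons), DESeq2 kept 135, the groups compared alone 135, RLE size factors 135, total library size 126, no filter 134, a mean of at least 50 counts 134, limma on log2(FPKM + 1) 122 and on log2(FPKM + 0.1) 124. The replicate block kept 137, and leaving the members out of the scaling genes, chosen after seeing the data, kept 136. Of the 124 results not called, total library size gained 37 calls and a mean of at least 50 counts 4. DESeq2, the groups compared alone and no filter each gained 3, and each limma fit 2. The replicate block gained 2, Fads2 for PIC against LPS and Dhcr7 for LPS+TBHQ against the control (both lower, FDR 0.0476). The replicate numbers do not pair the libraries: over all genes, deviations of libraries with the same number correlated at -0.0444 to 0.0645, and 6 of 18 libraries were closest to their own number. At an FDR below 0.01 with a |log2FC| above 2, 0 members were higher and 0 lower in each of the 9 comparisons by edgeR, with 0 also at an unadjusted p below 0.05 and by DESeq2. At an FDR below 0.05 with a |log2FC| above 0.5, the counts higher and lower, each with the share of all genes, were 1 (2.24%) and 0 (3.89%) after TBHQ, 0 (10.6%) and 4 (7.90%) after LPS, 0 (14.6%) and 9 (14.3%) after PIC, 0 (1.63%) and 0 (3.70%) with TBHQ before LPS, 2 (3.22%) and 0 (4.15%) with TBHQ before PIC, and 0 (3.45%) and 0 (3.05%) for PIC against LPS. They were 0 (7.71%) and 1 (6.38%) for LPS+TBHQ and 0 (11.6%) and 3 (10.5%) for PIC+TBHQ against the control, and 0 lower (0.110%) for the difference between stimuli. These stricter limits keep fewer genes by their own construction. With total library size, again with the share of all genes, 0 (17.9%) were higher after LPS, 0 (10.2%) lower with TBHQ before LPS, 2 (7.19%) higher and 19 (31.9%) lower for PIC against LPS, 0 (0.541%) lower for the difference between stimuli, 14 (29.5%) lower for LPS+TBHQ and 2 (17.3%) higher for PIC+TBHQ against the control. Among results called with or without that scaling, it also turned 4 directions: Hmgcs1 (-0.14, FDR 0.0166) and Hsd17b7 (-0.0586, FDR 0.438) in PIC against the control, and Msmo1 (-0.15, FDR 0.0376) and Sc5d (-0.14, FDR 0.0451) in PIC+TBHQ against the control. Results called in neither fit are not in that count. Fitting only the groups compared lost the calls of Fdps and Tm7sf2 for PIC against LPS. DESeq2 and RLE size factors each lost Srebf2 with TBHQ before PIC and Nsdhl for PIC+TBHQ against the control, a mean of at least 50 counts lost Mvk and Cyp51 after LPS and Srebf2 with TBHQ before PIC, and no filter lost Hmgcs1 with TBHQ before LPS and Nsdhl and Acaca for PIC+TBHQ against the control. Both limma fits lost the calls of Mvk and Idi1 after LPS, of Pmvk, Dhcr7 and Srebf2 with TBHQ before LPS, of Fdps and Srebf2 with TBHQ before PIC, of Idi1 and Fdps for PIC against LPS, of Acss2 for LPS+TBHQ against the control, and of Nsdhl, Acaca and Acss2 for PIC+TBHQ against the control, and limma on log2(FPKM + 1) also lost Ebp with TBHQ before LPS and Acat2 with TBHQ before PIC. With no filter 0 members were lower with TBHQ before LPS, beside 1398 of all 27701 genes. DESeq2 gave 3 members lower for the difference between stimuli (2.06% of all genes). The cause of these changes was not tested. With 1 library left out, members higher ranged over 7 to 9 after TBHQ, 2 to 2 after LPS, 2 to 4 after PIC, 7 to 15 with TBHQ before LPS, 12 to 17 with TBHQ before PIC, 3 to 5 for PIC against LPS, 0 to 0 for the difference between stimuli, 3 to 4 for LPS+TBHQ and 4 to 4 for PIC+TBHQ against the control. These fits tested 13965 to 14027 genes. Of all genes, those higher ranged in that order over 1539 to 2072, 2960 to 3425, 3654 to 4090, 1231 to 1639 and 1517 to 2160. The rest ran over 1794 to 2023, 72 to 115, 2611 to 3055 and 3295 to 3646. Members lower ranged, in the same order, over 4 to 5, 15 to 19, 18 to 20, 0 to 2, 4 to 5, 5 to 9, 0 to 1, 8 to 9 and 12 to 17. Of all genes, those lower ranged over 1672 to 2036, 2895 to 3310, 3676 to 4155, 1368 to 1698 and 1826 to 2329. The rest ran over 1353 to 1794, 86 to 239, 2707 to 3090 and 3242 to 3609. Of the 137 called results, 101 kept their call in all 18 such fits and 36 lost it in at least 1. With FPKM not scaled further, the fatty acid median was 51.4 in the control, 61.7 after TBHQ, 29.6 after LPS and 26.9 after PIC. It was 39.8 after LPS+TBHQ and 36.1 after PIC+TBHQ. In that measure the fatty acid median was lower after PIC than after LPS, though their libraries overlapped. The unscaled sterol median was 16.5 in the control, 16.8 after TBHQ, 14.06 after LPS, 12.3 after PIC, 14.95 after LPS+TBHQ and 13.0 after PIC+TBHQ. Fdps and Tm7sf2, with 60 to 149 and 72 to 179 counts in a library, had the fewest counts of the members.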
